A study of Mus musculus with 6 samples.

Results

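The genes described here are 39 genes of DNA replication and mitosis, taken as a named list and matched by gene identifier to the 43346 genes of a count table from mouse fetal cortical cultures. Of the 39, 21 were grouped as S phase genes and 18 as mitosis genes, and all 39 were found in the table. This grouping by role is a label, and the phase in which each gene was transcribed was not measured. The cells were primary cortical cells of embryos at gestational day 15.5. They received DMSO as vehicle or 10HDA at 1 mM, a hydroxylated fatty acid of royal jelly that the study examined as an estrogenic compound. Total RNA was extracted, and cDNA libraries made from it were sequenced. Cultures 1, 3 and 4 each gave 1 vehicle and 1 10HDA library, so that each treatment had 3 libraries, and no other agent is named in the labels of these libraries. The labels name the strain Cyp19-EGFP, whereas the methods for this experiment name another strain, for both treatments alike. How long the cells were treated is not given in the sources used here.

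Proliferating cells switch on these genes in 2 waves. Around the G1/S transition, E2F factors released from Rb family proteins drive the genes that load the replicative helicase, copy the DNA and supply nucleotides. Before mitosis, a second programme run by the MuvB complex with B-Myb and FoxM1 drives cyclins, mitotic kinases and spindle genes. Neurons do not divide, so that in a cortical culture the main source assumed for these transcripts is progenitors and glia that are still cycling. Which cells they came from was not measured, and genes of the list with a role in repair may be transcribed in other cells too. In bulk RNA, fewer cycling cells and less of these transcripts per cycling cell cannot be told apart.

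None of the 39 genes passed the test between 10HDA and vehicle. Of the 24 that reached 10 CPM (read counts scaled to the library total) in at least 3 libraries and so entered the test of 10520 genes, 0 had an adjusted p under 0.1 (edgeR quasi-likelihood test, Benjamini-Hochberg), where 0.627% of all genes tested did. The smallest adjusted p of a member was 0.53. The estimates were small: 11 of 13 S phase genes and 8 of 11 mitosis genes tested had a log2 fold change above 0, with medians of 0.08 and 0.07 beside -0.01 over all genes tested. In this fit, which had no culture term, every 95% confidence interval of the 24 genes spanned 0. For 20 of them it lay inside a 1.5-fold change in either direction. In a fit with culture as a block, the intervals of Mcm4 (0.003 to 0.47), Rrm2 (0.04 to 0.48) and Cdk1 (0.02 to 0.65) lay above 0, and none of them passed after adjustment. The mean difference between the S phase genes and the mitosis genes within a library was -0.03 on the log2 scale with vehicle (SD 0.11) and -0.03 with 10HDA (SD 0.06).

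The libraries held from 9144736 to 13367194 counts, and 3 counts corresponded to 0.224 to 0.328 CPM. Counts of the 39 genes in a library ran from 32 to 1373, so that all were measured well above this limit. Levels are given below as CPM after scaling by the trimmed mean of M-values (TMM). All 12 neuron markers on the list used entered the test, with summed levels of 7304 to 9260 CPM. All 6 libraries are labelled SRY+, but in both libraries of culture 1 4 genes of the Y chromosome (Uty, Kdm5d, Ddx3y and Eif2s3y) summed to 8.88 CPM (vehicle) and 9.09 CPM (10HDA), against 95.8 to 133 CPM in the other 4. Xist was counted in every library, at 1010 CPM (vehicle) and 1411 CPM (10HDA) in culture 1 and at 394 to 826 CPM in the other 4. Results are therefore also given without culture 1.

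Promoter windows of the list show letters that these 2 programmes are known to read. Windows of 300 bases (250 before to 50 after a start) from RefSeq, build GRCm38.p6, were found for 32 of the 39 genes, and not for Mcm4, Gins2, Pole, Ccne2, Ccna2, Aurkb and Tpx2. They were searched on both strands for E2F-type motifs in the form TTCCCGC, in the form TTGGCGC or in the form TTCGCGC, the cell cycle homology region (CHR) motif TTTGAA that MuvB binds, and CCAAT, the NF-Y motif. An E2F-type match was in a window of 10 of 17 S phase genes (58.8%) and 3 of 15 mitosis genes (20.0%), beside 9.20% of all 27025 genes with a window. For CHR the order was turned, with 2 of 17 S phase genes (11.8%) and 10 of 15 mitosis genes (66.7%), beside 20.2% of all genes. CCAAT was in 11 of 17 (64.7%) and 13 of 15 (86.7%), beside 41.1%. These are matches of letters and not measured binding.

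**Figure D1:**
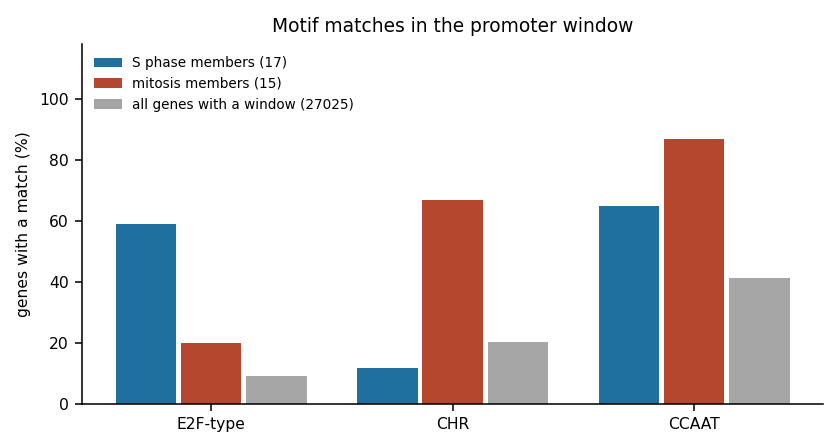
Share of genes (%, y axis) with at least 1 match of each motif in a promoter window, for 17 S phase members (blue), 15 mitosis members (red) and all 27025 genes with a window (grey). E2F-type matches stand highest in the S phase members (58.8%) and CHR matches in the mitosis members (66.7%).

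Sequences are printed for the 4 members with the most matches among those whose values are given library by library, 2 from each phase, with the matches in capitals. The window of Mcm5 (chr8:75109259-75109558, plus strand) held 3 E2F-type and 3 CCAAT matches and no CHR, and the printed window of Mcm7 (chr5:138171834-138172133, minus strand), the richer of its pair, held 3 and 3 as well. Cdk1 (chr10:69352863-69353162, minus strand) held 2 E2F-type, 2 CHR and 3 CCAAT matches, and Mki67 (chr7:135716330-135716629, minus strand) held 1, 2 and 3. Matches on the 2 strands may overlap: 1 pair did in Mcm5 and 3 pairs did in Mcm7, where E2F-type and CCAAT letters run into each other.
Mcm5: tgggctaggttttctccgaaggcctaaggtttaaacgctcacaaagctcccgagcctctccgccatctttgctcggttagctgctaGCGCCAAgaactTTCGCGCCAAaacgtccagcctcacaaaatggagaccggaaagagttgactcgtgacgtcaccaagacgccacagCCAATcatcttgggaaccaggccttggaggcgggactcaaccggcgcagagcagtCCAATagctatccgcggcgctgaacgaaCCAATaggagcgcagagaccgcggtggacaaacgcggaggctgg
Mcm7: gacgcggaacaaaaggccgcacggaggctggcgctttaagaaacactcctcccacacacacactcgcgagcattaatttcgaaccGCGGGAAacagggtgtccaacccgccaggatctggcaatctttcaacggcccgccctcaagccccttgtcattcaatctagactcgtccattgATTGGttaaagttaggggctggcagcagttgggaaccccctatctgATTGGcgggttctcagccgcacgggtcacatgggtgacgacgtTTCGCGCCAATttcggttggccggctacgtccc
Cdk1: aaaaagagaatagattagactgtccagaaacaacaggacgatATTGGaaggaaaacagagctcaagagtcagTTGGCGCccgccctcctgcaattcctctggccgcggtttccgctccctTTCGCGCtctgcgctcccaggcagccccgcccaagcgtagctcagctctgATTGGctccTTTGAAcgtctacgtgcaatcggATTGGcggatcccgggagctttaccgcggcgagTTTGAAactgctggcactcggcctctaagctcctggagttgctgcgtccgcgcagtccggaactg
Mki67: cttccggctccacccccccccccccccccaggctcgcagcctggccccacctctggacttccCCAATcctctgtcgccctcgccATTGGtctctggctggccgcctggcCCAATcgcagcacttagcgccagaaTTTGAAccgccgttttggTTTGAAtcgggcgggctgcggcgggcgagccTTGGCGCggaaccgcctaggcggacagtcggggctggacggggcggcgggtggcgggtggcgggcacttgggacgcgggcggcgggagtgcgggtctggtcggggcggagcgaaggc

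Among the S phase genes, the largest role group was the replicative helicase and its loading. Mcm2 to Mcm7 encode the 6 subunits of the MCM helicase, Cdc6 and Cdt1 load it on origins, and Cdc45 and the GINS subunit Gins2 turn it on. Mcm7, the highest of the group in CPM (chr5:138164583-138172422), stood at 39.2, 34.9 and 33.4 CPM with vehicle in cultures 1, 3 and 4, and at 37.0, 41.5 and 43.0 CPM with 10HDA. It was lower with 10HDA in culture 1 and higher in cultures 3 and 4, and the groups overlapped, with a log2 fold change of 0.18 (SE 0.114, 95% interval -0.07 to 0.43, adjusted p = 0.603 from edgeR).

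Mcm4 (chr16:15623897-15637400) had 21.0, 23.2 and 22.5 CPM with vehicle and 23.6, 28.6 and 26.3 CPM with 10HDA. Here all 3 libraries with 10HDA lay above all 3 with vehicle, and the log2 fold change was 0.24 (SE 0.126, interval -0.04 to 0.52, adjusted p = 0.532 from edgeR). Its sister subunit Mcm5 (chr8:75109569-75128439) had 22.6, 19.7 and 21.5 CPM with vehicle and 19.6, 23.2 and 18.1 CPM with 10HDA, with a log2 fold change of -0.06 (SE 0.137, interval -0.36 to 0.24). The subunits work as 1 ring, but their estimates ran from -0.06 for Mcm5 to 0.24 for Mcm4, with 0.01 for Mcm3, 0.12 for Mcm2 and for Mcm6, and 0.18 for Mcm7. Cdc45, Cdt1, Cdc6 and Gins2 did not reach 10 CPM in 3 libraries. In a fit of the 15311 genes with at least 1 CPM in 3 libraries their log2 fold changes were 0.15, 0.18, 0.23 and -0.03, each with an interval over 0.

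At the fork, Pcna is the sliding clamp, Pola1 and Pole are the catalytic subunits of polymerases alpha and epsilon, Lig1 joins Okazaki fragments, Rpa2 covers single strands and Ung removes uracil. Pcna (chr2:132249162-132253314) had 42.1, 44.7 and 34.5 CPM with vehicle and 41.3, 43.5 and 40.9 CPM with 10HDA. Its groups overlapped and the log2 fold change was 0.05 (SE 0.12, interval -0.21 to 0.32). Rpa2 (chr4:132768332-132778752) had 12.6, 12.3 and 10.9 CPM with vehicle and 11.4, 17.4 and 12.9 CPM with 10HDA. Within cultures 1, 3 and 4 the log2 ratios of Rpa2 were -0.14, 0.48 and 0.24, and the fitted change was 0.23 (SE 0.172, interval -0.15 to 0.61). Without the 10HDA library of culture 3 it was 0.03.

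Lig1 (chr7:13277283-13311433) had 32.0, 33.4 and 38.4 CPM with vehicle and 31.0, 35.2 and 30.8 CPM with 10HDA. It was 1 of 5 genes tested with an estimate below 0, at -0.09 (SE 0.12, interval -0.36 to 0.17), and culture 4 held most of that difference. Pola1 and Pole had estimates of 0.07 and 0.00. Ung was low, at 4.12 to 4.31 CPM with vehicle and 4.80 to 4.97 CPM with 10HDA. Its groups did not overlap, but at these counts its log2 fold change of 0.22 had an interval from -0.18 to 0.62 in the 1 CPM fit.

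Nucleotides for replication come from ribonucleotide reductase, with its large subunit Rrm1 and its S phase subunit Rrm2, and from thymidylate synthase, Tyms. Rrm2 (chr12:24708241-24714146) had 34.0, 38.3 and 28.0 CPM with vehicle and 39.3, 43.0 and 37.1 CPM with 10HDA. It was higher with 10HDA in each of the 3 cultures although the groups overlapped, with a log2 fold change of 0.26 (SE 0.133, interval -0.04 to 0.55, adjusted p = 0.53 from edgeR). Rrm1 (chr7:102441695-102469771) had 50.6, 57.3 and 51.2 CPM with vehicle and 52.1, 53.9 and 62.3 CPM with 10HDA, with a log2 fold change of 0.08 (SE 0.11). Tyms was below the filter and ran the other way, at 7.80, 8.25 and 7.07 CPM with vehicle and 7.12, 5.90 and 6.36 CPM with 10HDA. It was lower in 3 of 3 cultures, with a log2 fold change of -0.24 (interval -0.61 to 0.13) in the 1 CPM fit.

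Cyclin E, encoded by Ccne1 and Ccne2, activates Cdk2 at the entry to S phase, and both genes were below the filter. Ccne2 (chr4:11191351-11204779) had 5.74, 7.34 and 6.66 CPM with vehicle and 8.92, 7.42 and 6.26 CPM with 10HDA. Its cultures went in different directions, and the log2 fold changes of Ccne2 and Ccne1 were 0.21 and 0.06 in the 1 CPM fit.

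**Figure D2:**
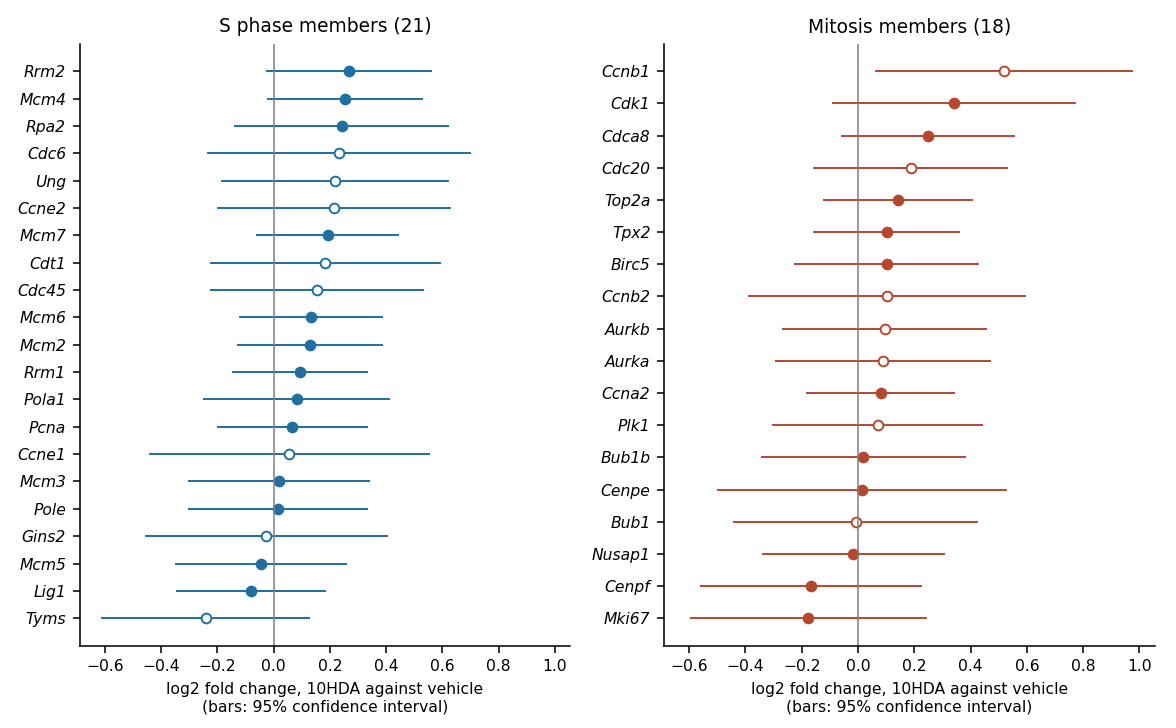
Log2 fold change of each member, 10HDA against vehicle (x axis), with its 95% confidence interval, from the edgeR fit of genes with at least 1 CPM in 3 libraries. Filled points mark the 24 members that also reached 10 CPM in 3 libraries and open points the other 15. In this fit, which has no culture term, only the interval of Ccnb1, from 0.06 to 0.98, lies wholly on 1 side of 0.

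Among the mitosis genes, Cdk1 is the kinase that drives entry into mitosis, and Ccna2, Ccnb1 and Ccnb2 encode the cyclins that activate it. Cdk1 (chr10:69335146-69352938) had 10.6, 10.4 and 6.49 CPM with vehicle and 11.3, 12.7 and 10.3 CPM with 10HDA. The vehicle library of culture 4 was the lowest of the 6 and the groups overlapped. The log2 fold change of Cdk1 was 0.33 (SE 0.193, interval -0.10 to 0.75, adjusted p = 0.577 from edgeR), the largest among the 24 members tested over all 6 libraries. Without the vehicle library of culture 4 it was 0.15, below Mcm4 (0.27) and Cdca8 (0.21).

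Ccna2 (chr3:36564865-36572150) had 26.5, 25.4 and 25.4 CPM with vehicle and 25.0, 26.4 and 29.6 CPM with 10HDA, with a log2 fold change of 0.07 (SE 0.119, interval -0.19 to 0.33). It was lower with 10HDA in culture 1 and higher in the other cultures. Ccnb1, below the 10 CPM filter, had 4.21, 5.45 and 3.99 CPM with vehicle and 6.43, 7.56 and 5.27 CPM with 10HDA. It was higher with 10HDA in 3 of 3 cultures and had the largest estimate of all 39 genes in the 1 CPM fit, at 0.52 (SE 0.209, interval 0.06 to 0.98). Its adjusted p was 0.414 there, and 0.117 with culture as a block, so that it passed in neither. For Ccnb2 the estimate was 0.10.

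Plk1 and Aurka are kinases of centrosomes and spindle, while Aurkb, Birc5 and Cdca8 belong to the chromosomal passenger complex that corrects microtubule attachment. Cdca8, which encodes borealin (chr4:124918465-124939311), had 14.5, 15.2 and 13.5 CPM with vehicle and 15.4, 19.0 and 16.4 CPM with 10HDA. Its groups did not overlap, and the log2 fold change was 0.24 (SE 0.137, interval -0.07 to 0.54, adjusted p = 0.575 from edgeR). Its partners in the complex had smaller estimates, 0.09 for Birc5 and, in the 1 CPM fit, 0.09 for Aurkb. Plk1 and Aurka stood at 0.07 and 0.09 in that fit.

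Bub1 and Bub1b hold the spindle checkpoint and Cdc20 activates the ligase that ends it. Bub1b (chr2:118598211-118641591) had 10.5, 15.4 and 11.7 CPM with vehicle and 12.0, 13.2 and 12.4 CPM with 10HDA. The vehicle library of culture 3 was the highest of the 6, and the log2 fold change was 0.01 (SE 0.163, interval -0.35 to 0.36). In the 1 CPM fit Bub1 and Cdc20 had log2 fold changes of -0.01 and 0.19, each with an interval over 0.

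The last group holds Mki67, the gene of the proliferation marker Ki-67 that coats mitotic chromosomes, the DNA topoisomerase Top2a, the kinetochore proteins Cenpe and Cenpf, and the spindle proteins Tpx2 and Nusap1. Mki67 (chr7:135689784-135716361) had the most CPM of all 39 genes, at 73.0, 98.8 and 114 with vehicle and 66.5, 73.2 and 112 with 10HDA. The 2 libraries of culture 4 were alike and high, those of culture 1 were low, and the groups overlapped widely. With 10HDA it was lower in 3 of 3 cultures, and the log2 fold change was -0.19 (SE 0.2, interval -0.63 to 0.25, adjusted p = 0.752 from edgeR), the lowest of the members tested over all 6 libraries. Leaving out 1 library of culture 4 moved it to -0.02 (vehicle) or -0.45 (10HDA).

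Cenpf (chr1:189640606-189688086) had 22.3, 32.8 and 33.2 CPM with vehicle and 20.2, 27.4 and 30.5 CPM with 10HDA. It was lower in 3 of 3 cultures as well, with a log2 fold change of -0.18 (SE 0.187, interval -0.59 to 0.23). Nusap1 (chr2:119618298-119651244) had 16.1, 18.3 and 20.5 CPM with vehicle and 15.7, 17.6 and 20.6 CPM with 10HDA, so that each culture kept its place whatever the treatment, and its log2 fold change was -0.03 (SE 0.149). Top2a and Tpx2 had estimates of 0.13 and 0.09, and Cenpe of 0.00.

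**Figure D3:**
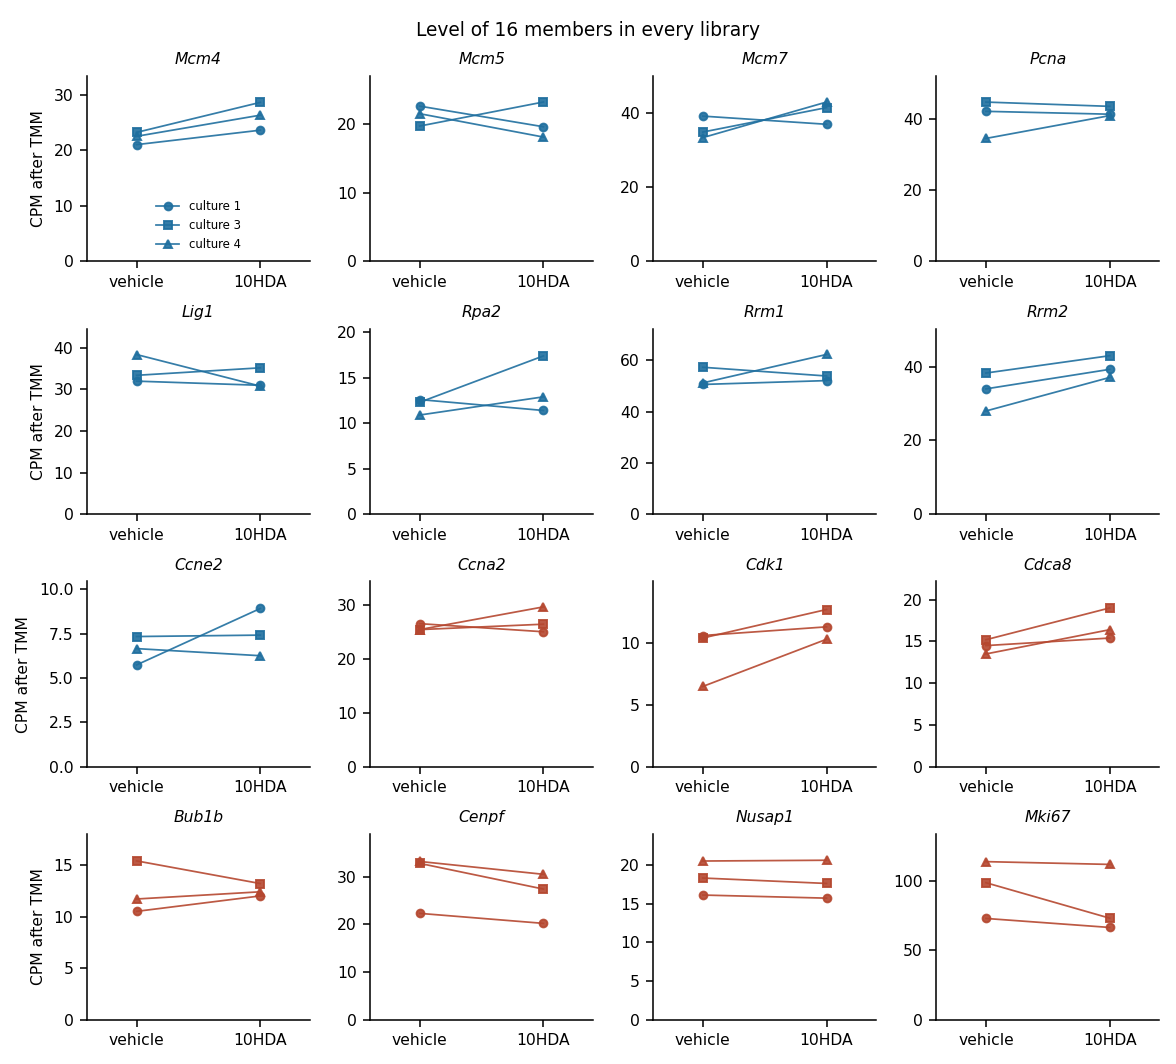
CPM after TMM scaling (y axis, from 0) of 16 members in the 6 libraries, with vehicle on the left and 10HDA on the right and a line for each culture (circles culture 1, squares culture 3, triangles culture 4). S phase members are blue and mitosis members red. Only the lines of Mcm4, Rrm2, Cdk1 and Cdca8 slope upward in all 3 cultures, and only those of Cenpf and Mki67 slope downward in all 3.

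Per kilobase of the gene length given in the table, the levels of the 39 genes ran from 17.2 CPM for Pcna, 13.7 for Rrm1 and 13.2 for Rrm2 down to 0.646 for Cdc6 (means over 6 libraries). On this scale Mki67, at 8.89, was the highest mitosis gene, ahead of Top2a at 7.73 and Ccna2 at 7.52. Cenpf, with 27.8 CPM, stood at only 1.80 per kilobase because its gene length is 15433 bases. Gene length and log2 fold change in the 1 CPM fit had a rank correlation (Spearman) of -0.314 over the 39 members. Over all 15311 genes at 1 CPM it was -0.132. What part length had in the estimates was not tested.

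Levels of the members also varied between cultures. The median spread between culture means, the highest less the lowest, was 0.18 on the log2 scale for S phase genes, 0.30 for mitosis genes and 0.25 for all 15311 genes at 1 CPM. It was widest for Cenpe, at 0.72, Mki67, at 0.69, and Cenpf, at 0.57, all lowest in culture 1. Cenpe, for example, had 11.5, 23.4 and 20.1 CPM with vehicle and 14.1, 18.6 and 22.7 CPM with 10HDA.

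Read culture by culture, the list as a whole leaned upward with 10HDA in cultures 3 and 4 and not in culture 1. Of the 39 genes, 14 (35.9%) were higher with 10HDA in culture 1, 27 (69.2%) in culture 3 and 30 (76.9%) in culture 4, beside 51.4%, 49.1% and 49.4% of all genes at 1 CPM. The median log2 ratio of the members was -0.04, 0.16 and 0.17 in cultures 1, 3 and 4. In the helicase group, 1 of 10 genes was higher in culture 1, and 9 of 10 were in each of the others. Culture 1 was also the culture with low levels of Y chromosome genes, and what part this had in the contrast was not tested. In the fit over all libraries at 1 CPM, 31 of 39 log2 fold changes were above 0 (79.5%), against a background of 52.6%. These genes were measured in the same libraries, so that they are not independent observations.

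Few members kept a direction in every culture. Mcm4, Ung, Rrm2, Ccnb1, Cdk1 and Cdca8 were higher with 10HDA in 3 of 3 cultures, which is 15.4% of the list beside 19.1% of all genes at 1 CPM. Tyms, Cenpf and Mki67 were lower in 3 of 3, or 7.69% beside 19.5%. The groups did not overlap for 3 members, Mcm4, Ung and Cdca8, all higher with 10HDA (7.69%, beside 6.65% of all genes at 1 CPM), and for 0 members that were lower (beside 7.15%).

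**Figure D4:**
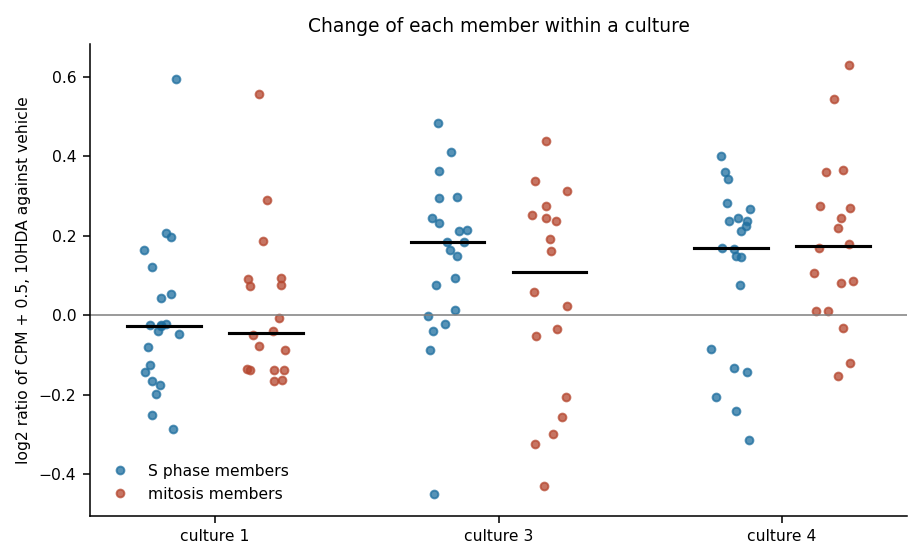
Log2 ratio of CPM + 0.5 with 10HDA against vehicle (y axis) within each culture, with a point for each of the 21 S phase members (blue) and 18 mitosis members (red) and a black line at their median. The medians lie just under 0 in culture 1 and between 0.11 and 0.18 in cultures 3 and 4.

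A fit with culture as a block called no member either. There, 945 of 10520 genes passed, or 8.98%, and 0 of the 24 members did, with a smallest adjusted p of 0.167 for Rrm2 (edgeR). DESeq2, limma-voom and edgeR's likelihood ratio test, run without the block, called 0 of the 24 as well. At an unadjusted p under 0.05, 0 of 24 members passed without the block, beside 10.1% of all genes, and 3 of 24 did with it, Rrm2, Cdk1 and Mcm4, beside 20.0%. All 39 genes could be fitted at 1 CPM, where 0 passed without the block (background 0.509%) and 0 with it (background 7.50%). In that block fit 4 of 39 had an unadjusted p under 0.05, namely Ccnb1, Rrm2, Cdk1 and Mcm4, beside 18.7% of all genes. Without culture 1 the medians were 0.16 for the S phase genes and 0.16 for the mitosis genes tested. There 0 members passed, but only 3 of all 10520 genes did, so that this count says little about the members.

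S phase and mitosis genes were compared within each library, as the mean log2(CPM + 0.5) of the 21 S phase genes minus that of the 18 mitosis genes. With vehicle this difference was 0.07, -0.14 and -0.01 in cultures 1, 3 and 4, and with 10HDA it was 0.05, -0.05 and -0.08. It went down in cultures 1 and 4, by 0.02 and 0.07, and up by 0.09 in culture 3. The change averaged 0.00 ± 0.08 (SD over 3 cultures), since the S phase mean changed by 0.08 ± 0.08 and the mitosis mean by 0.08 ± 0.09. No shift of 1 phase against the other was detectable beyond the spread between cultures.

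**Figure D5:**
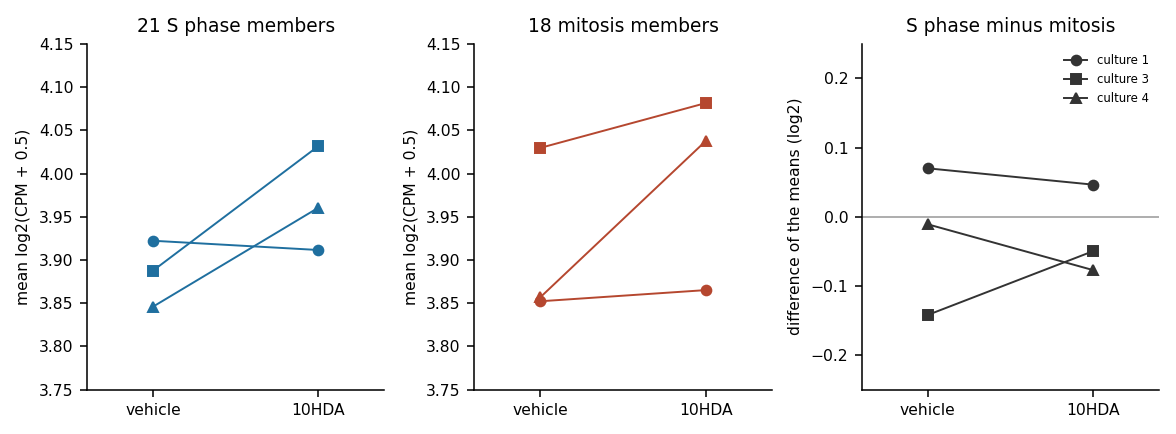
Mean log2(CPM + 0.5) of the 21 S phase members (left) and the 18 mitosis members (middle), both on an axis that does not start at 0, and the difference between the means (right), in vehicle and 10HDA libraries, with a line for each culture. The difference stays between -0.14 and 0.07 in all 6 libraries.

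Genes of the same pathways outside the list are read against the 0.627% of all genes called without the block and the 8.98% called with it. Of 48 further replication genes, 32 were tested, with a median log2 fold change of 0.14, and 0 passed without the block. With the block 3 passed, all higher with 10HDA: Dut, which removes dUTP from the nucleotide pool, the polymerase delta subunit Pold1, and the polymerase epsilon subunit Pole4. Dut had 25.0, 30.0 and 22.1 CPM with vehicle and 36.9, 38.4 and 29.2 CPM with 10HDA. It was higher with 10HDA in each culture, by 0.44 on the log2 scale (edgeR adjusted p = 0.36, and 0.0174 with the block). Pold1 was higher by 0.40 (edgeR adjusted p = 0.434, and 0.086 with the block) and Pole4 by 0.35 (0.655, and 0.0881 with the block).

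Of 53 further mitosis genes, 26 were tested with a median of 0.05, and 0 passed without the block. With it 1 passed, H2afz, a histone variant gene placed on this list by choice. It has processed copies, and whether the counting split reads between them was not tested. H2afz had 67.3, 55.0 and 47.0 CPM with vehicle and 71.2, 107 and 58.1 CPM with 10HDA. Culture 3 held most of this difference, and the log2 fold change was 0.49 (edgeR adjusted p = 0.457, and 0.0293 with the block). At 1 CPM with the block 3 of 53 passed, beside 7.50% of all genes. These were H2afz, the centromeric histone gene Cenpa, at 0.77 (adjusted p = 0.0046 from edgeR), and the kinetochore gene Spc25, at 0.48 (adjusted p = 0.0808 from edgeR). Cenpa and Spc25 are named here after their values were seen. Without the block their adjusted p was 0.358 and 0.37.

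Of 28 regulators of the 2 programmes, such as D-type cyclins, E2F factors, Rb family genes and MuvB subunits, 17 were tested, with a median of 0.07, and 0 passed with or without the block. Of 18 cell cycle inhibitors and checkpoint kinases, 10 were tested, with a median of 0.22, and 0 passed without the block. With it 2 passed, both higher with 10HDA. At 1 CPM with the block 3 of 17 passed, all higher, beside 7.50% of all genes. Btg2, an antiproliferative gene that also marks neurogenic progenitors, had 16.2, 20.1 and 13.6 CPM with vehicle and 23.3, 33.3 and 21.8 CPM with 10HDA. Its groups did not overlap, and the log2 fold change was 0.66 (adjusted p = 0.279 from edgeR, and 0.00115 with the block). Cdkn2c, an inhibitor of Cdk4 and Cdk6, had 8.16, 9.38 and 7.99 CPM with vehicle and 10.3, 13.5 and 11.7 CPM with 10HDA. Here too the groups did not overlap, and the log2 fold change was 0.48 (adjusted p = 0.331 from edgeR, and 0.0586 with the block).

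Markers of several cell types differed between the treatments. Their counts of calls are read beside the 0.627% of all genes called without the block and the 8.98% called with it. At 1 CPM without the block the share was 0.509%. Of 8 astrocyte markers tested, 5 were called without the block and 6 with it, all lower with 10HDA, with a summed level of 783 to 976 CPM with vehicle and 534 to 659 CPM with 10HDA for the 10 on the list, S100b being under 1 CPM throughout. At the filter of 1 CPM, 4 of 9 were called, and Agt, at 0.81 to 2.45 CPM, had a log2 fold change of 0.77 in the other direction (edgeR adjusted p = 0.464). For the 12 radial glia markers the sums were 2225 to 2458 and 1935 to 2159 CPM, and 0 of 10 tested passed without the block (1 higher and 2 lower with it). The 8 intermediate progenitor markers, which include Btg2 and Gadd45g of the inhibitor list, summed to 107 to 128 and 132 to 177 CPM. Among them 0 of 4 tested were called (2 higher with the block, 1 of them Btg2). The 7 markers of the oligodendrocyte lineage summed to 329 to 409 and 248 to 354 CPM, and 1 of 6 was called, lower (3 with the block).

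Neuron markers summed to 8580 to 9260 CPM with vehicle and 7304 to 8333 CPM with 10HDA, with 0 of 12 called (3 lower with the block), and the 8 interneuron markers to 495 to 618 and 418 to 560 CPM, with 0 of 8 called (3 lower with the block). The 7 markers of endothelial cells and pericytes summed to 17.3 to 18.9 and 7.98 to 11.1 CPM, with Cldn5, Flt1, Rgs5 and Kcnj8 under 1 CPM, and the 1 tested was lower. The 6 fibroblast markers, which include Pdgfra of the oligodendrocyte list, summed to 91.5 to 150 and 32.6 to 72.2 CPM, with Col1a2, Col3a1 and Lum under 1 CPM, and 0 of 1 tested passed (1 lower with the block). All 7 microglia markers were under 1 CPM in every library, summing to 0.772 to 1.17 CPM. What part these differences had in the values of the 39 genes was not tested.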

How the data were processed

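RNA of primary cortical cultures (3 vehicle and 3 10HDA libraries) was prepared with a strand-specific kit and sequenced as single-end reads. Per the methods, the authors mapped the reads, untrimmed, to mm10 (Subjunc, Subread 1.4.4) and assigned them to Gencode genes with featureCounts. The strand setting is not given in the sources used here. The deposited values are raw counts per gene, neither normalized nor filtered. The table also holds a gene length, and 0 further sample columns. Symbols and coordinates came from GENCODE M21 (GRCm38), which matched 98.0% of the identifiers.

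The 10520 genes with 10 or more CPM in 3 or more libraries were tested, after TMM scaling, with the quasi-likelihood functions of edgeR 4.0.16 in R 4.3.3. The p-values were adjusted over all these genes by Benjamini-Hochberg, with a threshold of 0.1 after the methods. No culture term was used, since the methods name none. The standard error of a log2 fold change is its size over the root of F. Log2 ratios within cultures used a pseudocount of 0.5 CPM. The common biological coefficient of variation was 0.116 (0.0849 with the block). Intervals of fold changes are 95% intervals from the edgeR fit, which include the spread between libraries, while the limit of 3 counts covers counting error only. With 3 against 3 libraries an exact permutation test cannot go below 0.1, so none was used.

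The labels put 1 library of each treatment in each culture, which pairs them. Deviations of paired libraries from their treatment means had correlations over genes of 0.368 (culture 1), 0.235 (culture 3) and 0.616 (culture 4), while unpaired ones had -0.449 to 0.183. Deviations within a treatment cancel out for every gene, so that part of this contrast is built in. A fit with culture as a replicate block was an alternative. Others were DESeq2 1.42.0 (size factors, Wald test), upper quartile scaling, library size alone, edgeR's likelihood ratio test, limma-voom (limma 3.58.1), filters of 1 CPM in 3 libraries and of 10 counts in total, a threshold of 0.05, and each library or culture left out. Scripts were tested on simulated data.

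The 39 members, the other gene lists, the markers and the motifs were chosen with earlier results of these data known. Values in every library are given for members past the threshold, the 5 largest and 5 smallest fold changes tested, and the highest CPM of each role group. Of these, the 4 with most motif matches have their promoter printed. Other members were added where the text describes their direction. Genes of other lists are named if past the threshold, with or without the block, at most 4 a list.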

Additional observations from a re-analysis of the deposited data

How the results depend on the processing

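Of the 24 members tested, 0 were called with other scalings and tests, with culture as a replicate block, without each library or culture and at a threshold of 0.05. All 39 were fitted only with the filters of 1 CPM and of 10 counts and with the block at 1 CPM, and 0 were called in each. Over all genes, 66 were called (21 higher, 45 lower), against 170 with the DESeq2 Wald test, 218 with the likelihood ratio test, 945 with the replicate block, 1148 with the block at 1 CPM and 43 at a threshold of 0.05. Library size alone gave 21 higher and 24 lower. Leaving out libraries or cultures gave from 0 (without the 10HDA library of culture 1, and without culture 3, by edgeR, with 469 and 725 at an unadjusted p under 0.05) to 350 (without the 10HDA library of culture 4). The median of the S phase genes ran from 0.0274 without the 10HDA library of culture 3 to 0.1622 without culture 1, and that of the mitosis genes from -0.0041 without culture 4 to 0.1603 without culture 1. Of 486 estimates of members under alternatives, 34 had the other sign, in 10 genes near 0. Mcm5 was at 0.0221 and Nusap1 at 0.0491 by library size alone, and Nusap1 at 0.0013 by upper quartile scaling. With libraries or cultures left out, Mcm3 ran from -0.0971 to 0.1622, Mcm5 from -0.2195 to 0.0332, Pcna from -0.0292 to 0.1554, Pole from -0.0837 to 0.1195, Lig1 from -0.1878 to 0.0273, Rrm1 from -0.0166 to 0.1700, Ccna2 from -0.0041 to 0.1603, Bub1b from -0.0816 to 0.2057, Cenpe from -0.2204 to 0.2387 and Nusap1 from -0.1315 to 0.0771. The cause was not tested. The mean change of S phase against mitosis genes stayed between -0.0693, with medians in place of means, and 0.0496, without the vehicle library of culture 1; the former, and its value at 10 CPM, were added after seeing the data. Depth limits the 15 genes under the 10 CPM filter most. The replicate block changed no call of a member.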
